A study of Mus musculus and Homo sapiens with 10 samples.

Results

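Broad H3K122ac domains in mouse embryonic stem cells are the subject here. They are the H3K122ac islands, stretches of enriched chromatin called by the authors, that span 10000 bp or more. Of 92957 H3K122ac islands, 1866 (2.01%) met this length. They were chosen by the length of the island in the H3K122ac list itself, so their length, read counts and enrichment in that list are given as a description. Coverage by islands of H3K64ac and of H3K27ac was not used to choose them. The mouse libraries were made from 46c cells, a mouse embryonic stem cell line with a green fluorescent reporter in the neural gene Sox1, grown undifferentiated without feeder cells in serum with Lif at passages 25 to 28. Chromatin was cut with micrococcal nuclease and immunoprecipitated with antibodies against H3K122ac, H3K64ac or H3K27ac and 2 biological replicates per mark. No treatment or genotype separated the mouse groups, which differed only in the antibody. The human erythroleukaemia line K562, at passage 14 and also untreated, is used only for values set side by side at the end. The authors merged the 2 replicates of a mark before islands were called, so each mark has 1 list, the spread between replicates is unknown, and no comparison below carries a test.

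The residues K122 and K64 of histone H3 lie in the globular core of the nucleosome, where the histone touches DNA, and K27 lies in the flexible tail. Acetylation in the core is known to loosen the hold of the histones on DNA, while H3K27ac is the usual mark of active promoters and enhancers. The acetyltransferases p300 and CBP are known to act on K122 and on K27. Long stretches of acetylated chromatin in stem cells are known from strongly transcribed genes and from clusters of enhancers. The series is about acetylation of the globular domain as a mark of enhancers, and the comparison here asks how far the core marks and the tail mark fill the same long stretches. No gene annotation or genome sequence of the build of these lists, mm9, was used here, so domains are given by position and not by gene, and stem cell marker genes were not analysed here.

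Broad domains made up 26.2 Mb, which is 11.1% of the 236.2 Mb of H3K122ac islands, and held 13.5% of the H3K122ac reads and 11.8% of the background reads of that list. Their median length was 12400 bp, 25% of them were longer than 15400 bp and 177 were 20000 bp or longer. The whole list held 44320255 immunoprecipitated reads inside islands, and the broad domains had a median of 2836.5 reads over 828 background reads. Their fold over background, as deposited by the authors, had a median of 3.84 and ran from 1.20 to 12.0, against a median of 2.83 over all H3K122ac islands. Background was similar, at a median of 65.2 reads per kb in the broad domains and 61.9 in all islands. Just outside the length limit, the 106 islands of 9600 bp and the 100 islands of 9800 bp had median folds of 3.43 and 3.48. Just inside it, the 119 islands of 10000 bp and the 96 of 10200 bp had 3.82 and 3.78.

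The other core mark, H3K64ac, filled the broad domains almost completely. The median domain had 95.2% of its length inside H3K64ac islands, with quartiles of 85.3 and 100%. H3K64ac was met by 1861 of the 1866 domains (99.7%, Wilson 95% interval 99.4 to 99.9%), against 60.6% of all H3K122ac islands. At least 50% of the length was covered in 1817 domains, or 97.4% (96.5 to 98.0%), against 57.7% of all H3K122ac islands. At least 80% was covered in 1540 domains, or 82.5% (80.7 to 84.2%), against 46.0%. In H3K122ac islands of 5000 to under 10000 bp these shares were, in the same order, 96.0%, 89.6% and 69.6%. In 656 domains, 35.2% (33.0 to 37.4%), H3K64ac left no base uncovered, close to the 30.4% of all islands and the 34.8% of islands of 5000 to under 10000 bp. Intervals cover counting error only, since neighbouring islands are not independent.

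H3K27ac, the tail mark, was nearly always present but filled the domains less completely. The median domain had 64.5% of its length inside H3K27ac islands, with quartiles of 43.1 and 81.9%. An H3K27ac island was met by 1795 domains, 96.2% (95.2 to 97.0%), against 55.6% of all H3K122ac islands. At least 50% of the length was covered in 1296 domains, 69.5% (67.3 to 71.5%), against 41.0% of all islands. At least 80% was covered in 534 domains, 28.6% (26.6 to 30.7%), against 23.2%. In H3K122ac islands of 5000 to under 10000 bp these shares were, in the same order, 84.9%, 53.5% and 22.3%. Only 36 domains, 1.93% (1.40 to 2.66%), were wholly covered, against 14.9% of all islands and 22.4% of those under 1000 bp. Many H3K27ac islands had a low fold: with a fold of 2 or more required of them, 7.61% of domains were covered over at least 50% of their length and 33.9% met any such island. Of all H3K27ac islands 17.8% had such a fold. Shares of other H3K122ac islands under this limit are not given here, so it is not known whether broad domains differ from them. With the same limit on H3K64ac islands, 84.5% of domains had at least 50% covered, but a fold is scaled by its own list, so the limit is not equally strict in both. Islands of a list were called at its own depth and gap, so coverage by H3K64ac and by H3K27ac is set side by side and was not tested against each other.

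**Figure D1:**
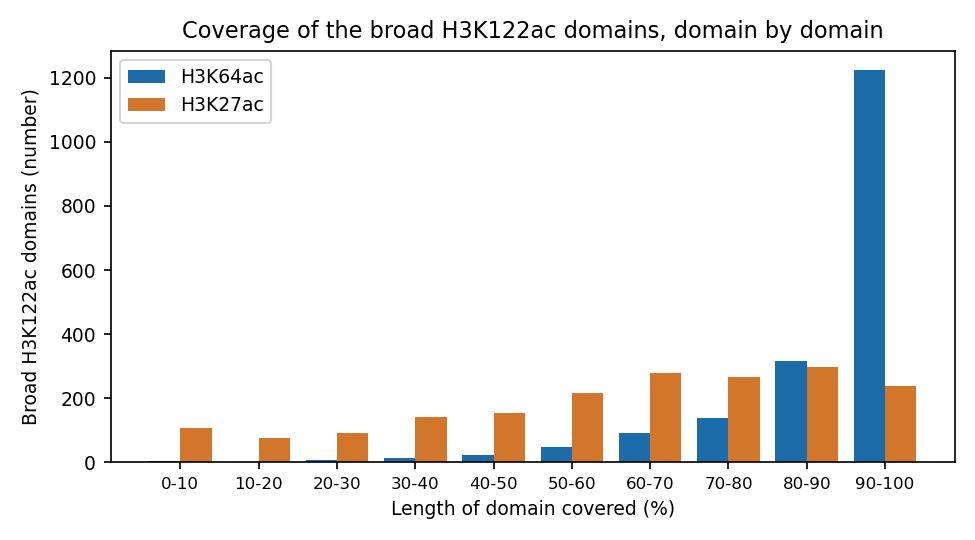
Number of broad H3K122ac domains (vertical axis) by the percentage of the domain's length covered by islands of H3K64ac (blue) or H3K27ac (orange), in steps of 10 percentage points. H3K64ac covered at least 90% of 1223 of the 1866 domains, whereas H3K27ac coverage was spread over the whole range, with 238 domains at 90% or more and 106 under 10%.

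Long islands meet other islands more often by their length alone, so the covered share of length was set out by the length of the H3K122ac island. For H3K64ac the median covered share was 88.9% in islands of 2000 to under 5000 bp, 92.6% in those of 5000 to under 10000 bp, 94.2% in those of 10000 to under 15000 bp and 98.6% in those of 20000 bp or more. For H3K27ac the same medians were 40%, 53.1%, 63.1% and 75.1%. Broad domains thus lay at the upper end of a gradient with length. Taken over all bases, H3K64ac covered 90.3% of the broad domains and 82.6% of the islands of 5000 to under 10000 bp, and H3K27ac covered 61.5% and 50.2%. Both differences had the same direction on 20 of the 20 chromosomes with broad domains. Median fold of H3K122ac moved with length too, from 3.05 in islands of 2000 to under 5000 bp to 4.13 in those of 20000 bp or more. Its part in the gradient of coverage was not tested.

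**Figure D2:**
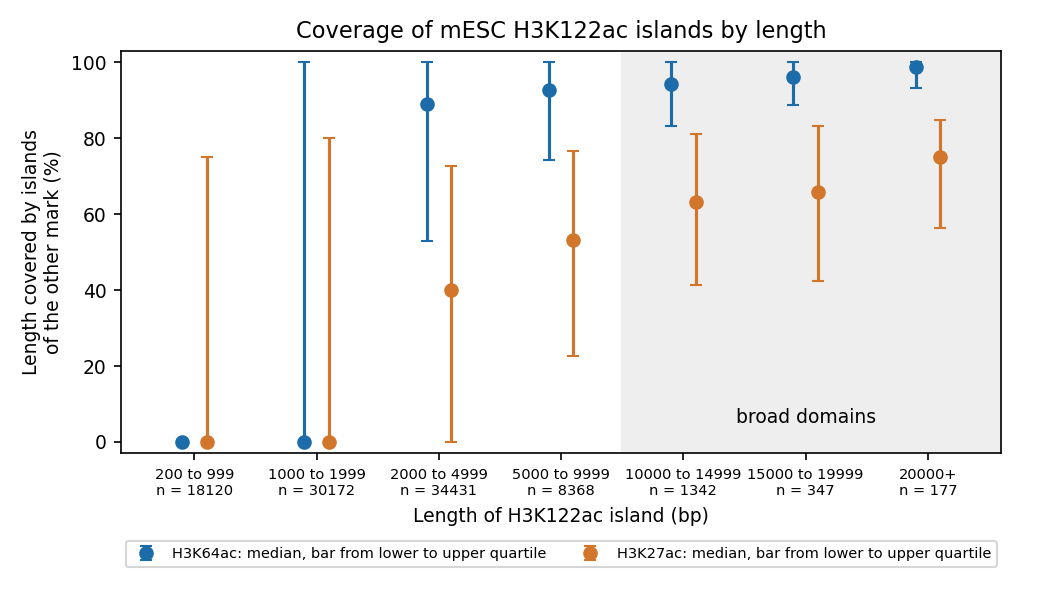
Percentage of the length of mESC H3K122ac islands covered by H3K64ac (blue) or H3K27ac (orange), by length of the H3K122ac island in bp, with the number of islands under each range. Points are medians and bars run from the lower to the upper quartile, and the shaded ranges are the broad domains, where the medians are 94.2 to 98.6% for H3K64ac and 63.1 to 75.1% for H3K27ac.

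Sorted base by base, 59.2% of the broad domains (15.5 Mb) lay in islands of both H3K64ac and H3K27ac. A further 31.2% (8.15 Mb) lay in H3K64ac islands without H3K27ac, where both core acetylations but no H3K27ac were called. H3K27ac without H3K64ac took 2.31%, and 7.35% of the length carried H3K122ac alone. In islands of 5000 to under 10000 bp the same shares were 47.0%, 35.6%, 3.19% and 14.2%, and over all H3K122ac islands 38.1%, 31.0%, 6.12% and 24.7%. The share with both core marks and no H3K27ac was therefore close to that of the whole list, while the share with H3K122ac alone was lower in broad domains.

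The marks also differed in how they were broken up. In 1412 domains (75.7%) H3K64ac formed a single island, in 449 it formed 2 or more, and the largest number was 4. The largest H3K64ac piece had a median of 10800 bp and took a median of 94.6% of the domain. H3K27ac lay in 2 or more separate islands in 1528 domains (81.9%), with a median of 3 and up to 18. Its largest piece had a median of 4400 bp, or 32.1% of the domain. In 1080 domains (57.9%) there were 3 or more H3K27ac islands, against 3.32% of all H3K122ac islands. In H3K122ac islands of 5000 to under 10000 bp the share was 17.6%, and length alone favours such a count. The other counts of pieces and of long stretches given here also depend on length, and their shares in shorter islands were not computed. The longest stretch of a domain without H3K27ac had a median of 2600 bp and reached 5000 bp or more in 444 domains, 23.8%. For H3K64ac that stretch had a median of 600 bp and reached 5000 bp in 51 domains.

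The number of pieces depends on the gap that a list allowed inside an island, which was 600 bp for the core marks and 200 bp for H3K27ac. When H3K27ac islands were joined across 600 bp, the median number of pieces was 2 and 807 domains held a single piece. The largest piece then had a median of 6800 bp or 51.8% of the domain, and the median covered share was 69.9%. The longest stretch without H3K27ac, which joining over so short a space can hardly alter, had a median of 2600 bp as before.

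Breadth itself was often shared between the core marks. An H3K64ac island of 10000 bp or more was met by 1348 broad domains, 72.2% (70.2 to 74.2%), against 4.89% of all H3K122ac islands and 16.5% of those of 5000 to under 10000 bp. An H3K27ac island of that length was met by 216 domains, 11.6% (10.2 to 13.1%), against 0.719% of all islands. In H3K122ac islands of 5000 to under 10000 bp the share was 2.08%. There were 2766 broad islands in the H3K64ac list and 554 in the H3K27ac list. The gap allowed inside an island was 600 bp for H3K64ac and 200 bp for H3K27ac, which bears on how many islands reach 10000 bp. Broad H3K27ac islands were not recounted after joining across 600 bp, so the shares of the 2 marks are not alike in rule. In 201 domains broad islands of all 3 marks met, in 1147 the broad partner was H3K64ac only, in 15 it was H3K27ac only, and in 503 neither other mark was broad. From the other side, 48.0% of the broad H3K64ac islands and 38.3% of the broad H3K27ac islands met a broad H3K122ac domain. Over all H3K64ac and all H3K27ac islands these shares were 4.07% and 4.57%, and length alone favours such a meeting. Of the 1437 broad H3K64ac islands without a broad H3K122ac domain, 1415 met shorter H3K122ac islands, a median of 2 each, and 22 met none. Meeting H3K122ac was common at any length, since only 6.54% of all H3K64ac islands met no H3K122ac island. The median H3K64ac fold of the 1437 was 2.97, against 3.77 for broad H3K64ac islands with a broad H3K122ac domain.

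Coverage was highest in the middle of the domains. Near the middle, at 47.5% of the length, 94.9% of domains carried H3K64ac and 67.1% carried H3K27ac. At 2.5% of the length the shares were 73.5% and 48.4%, and at 97.5% they were 74.5% and 48.8%, close to the values at the other end. Taking each domain in 3 equal parts, H3K64ac covered 94.9% of the central part and 88.1% of the outer parts. The centre was the better covered in 993 domains, the less covered in 207 and equally covered in 666. For H3K27ac the values were 66.5% and 59.0%, with the centre better covered in 1108 domains, less covered in 640 and equally covered in 118. H3K122ac islands of 5000 to under 10000 bp had profiles of the same shape at lower levels, 88.7% against 55.2% at 47.5% of the length.

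Outside the domains coverage dropped at once, and from 1 kb outwards it lay above that at 100 kb, while H3K27ac at 0.5 kb, 16.3%, lay below it. At 1 kb beyond an edge 30.3% of positions lay in an H3K64ac island and 19.6% in an H3K27ac island. At 5 kb the values were 36.8% and 28.8%, and at 100 kb 22.4% and 17.8%. Around islands of 5000 to under 10000 bp the values at 5 kb were 27.4% and 21.3%, and at 100 kb 18.5% and 14.6%. H3K122ac islands themselves are never closer to each other than 800 bp, by the gap of their calling, so no H3K122ac lies just outside an edge.

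**Figure D3:**
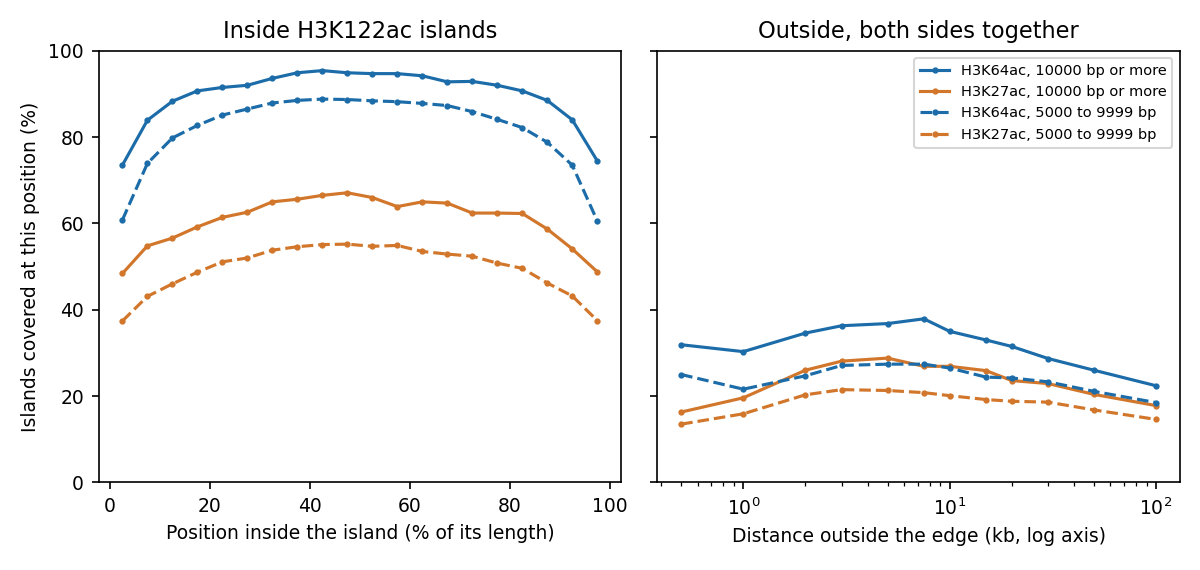
Percentage of H3K122ac islands covered by H3K64ac (blue) or H3K27ac (orange), by position inside the island in % of its length (left) and by distance outside its edges in kb on a log axis (right). Solid lines are the 1866 broad domains and dashed lines the 8368 islands of 5000 to under 10000 bp. Inside the broad domains H3K64ac reaches 95.4% and H3K27ac 67.1%, and outside both stay under 40%.

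The ends of the domains were compared with the outermost ends of the H3K64ac islands they met. Islands were called in windows of 200 bp, so ends can differ only in steps of 200 bp and equal ends mean the same window. Of 3722 such edges, 773 (20.8%) were equal and 61.7% lay within 1000 bp of each other. H3K64ac ran on past the domain at 43.9%, by a median of 1400 bp, and stopped short at 35.4%, by a median of 800 bp. The median offset was 0. H3K27ac stopped short at 56.1% of 3590 edges, by a median of 1600 bp, and ran on past 25.5% of them. In 62 domains an H3K64ac island had both ends in common with the domain, and in all 62 both lists gave the same background count.

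Enrichment of the 3 marks was ordered alike among the domains. The fold of the H3K64ac islands meeting a domain, pooled over whole islands, had a median of 3.45 and a range of 1.11 to 16.0, and that of the H3K27ac islands a median of 1.54 and a range of 1.08 to 3.91. Across domains Spearman's rho was 0.79 between the H3K122ac and H3K64ac folds (n = 1861), 0.68 between H3K122ac and H3K27ac (n = 1795), and 0.76 between H3K64ac and H3K27ac (n = 1793). These points share their background reads, whose density per kb had a rho of -0.53 with the H3K122ac fold, so the correlations are descriptions only. In the 467 domains of lowest H3K122ac fold (1.20 to 3.03) the median coverage was 90.7% by H3K64ac and 51.8% by H3K27ac, and background was 72.1 reads per kb. In the 467 of highest fold (4.78 to 12.0) the coverages were 96.7% and 71.2%, with a background of 55.7 reads per kb. Coverage itself had a rho of 0.00 with background for H3K64ac and 0.05 for H3K27ac.

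H3K27ac islands inside broad domains were compared with H3K27ac islands that met only shorter H3K122ac islands, a property of the H3K27ac list that the choice of domains did not use. The 4702 wholly inside were enriched by a median of 1.58 (quartiles 1.36 and 1.92), and their length had a median of 2000 bp. The 5583 that met a broad domain by any part had a median fold of 1.55, with 19.6% at a fold of 2 or more. The 61607 that met shorter H3K122ac islands by any part were enriched by a median of 1.55 (quartiles 1.34 and 1.94). Of these, 22.6% had a fold of 2 or more, and their median length was 1400 bp. The folds were therefore nearly the same over all lengths, but not at each length. Among H3K27ac islands of 4000 bp or more, the median fold was 1.62 inside the domains (954 islands) and 1.35 elsewhere (4792 islands), with 21.9% and 8.06% at a fold of 2 or more, at a background of 70.7 and 71.4 reads per kb. Among those under 1000 bp it was 1.64 inside and 1.72 elsewhere. In both ranges inside meant wholly inside a domain, while elsewhere meant sharing any base with a shorter H3K122ac island, so the rules were unlike. The 54907 H3K27ac islands with no H3K122ac at all were enriched by a median of 1.44 and had a median of 1000 bp.

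For H3K64ac, 1088 islands lay wholly inside a broad domain, with a median length of 7400 bp and a median fold of 2.72. The 2340 that met a broad domain by any part had a median of 10800 bp and a fold of 3.20, and the 51413 that met only shorter H3K122ac islands a median of 2600 bp and a fold of 2.46. Between ranges of length the order was not the same. H3K64ac islands of 2000 to under 4000 bp had a median fold of 1.97 when wholly inside broad domains (211 islands) and 2.42 elsewhere. Their background was 66.2 and 57.0 reads per kb. Those of 4000 bp or more had 3.16 inside and 2.80 elsewhere, at 66.8 and 58.8 reads per kb. This last range has no upper limit and was not matched in length, with medians of 9400 bp inside and 5600 bp elsewhere. The part of background and of length in these differences was not tested.

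The longest entry stood apart from the rest. It was chr11:3030401-3100200 (mm9; all positions are 1-based), 69800 bp near the start of the chromosome, with 35391 H3K122ac reads over 27461 background reads. Its background of 393.4 reads per kb was far above the median of 65.2, and its fold was 1.41. H3K64ac covered 100% of it at a fold of 1.28, and it held no H3K27ac island, the nearest being 1400 bp away. The part of its high background in the call was not tested. Of all domains 6 had a background above 100 reads per kb, and 3 of them lay close together on chromosome 17, between 30711001 and 30966600, at 102.0 to 105.9 reads per kb. Without these 6 domains the shares with H3K64ac and H3K27ac over at least 50% of their length were 97.4% and 69.6%.

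The other long domains were enriched more strongly. chr4:130172601-130220800, of 48200 bp, had 12274 H3K122ac reads over 2392 background reads and a fold of 5.62. A single H3K64ac island with a fold of 6.53 covered it whole, while 18 H3K27ac islands, the most of any domain, covered 75.1% of it with no interruption longer than 1400 bp. Next by number came chr9:72914001-72945000, of 31000 bp, with 12 H3K27ac islands over 64.5% and a fold of 4.01. chr11:33416201-33454800, of 38600 bp, was alike, with a fold of 5.74, 1 unbroken H3K64ac island at 7.70 and 12 H3K27ac islands over 77.2%. chr6:39366001-39406800, of 40800 bp, had a fold of 5.36, H3K64ac over its whole length at 7.0, and the most complete H3K27ac coverage of the 10 longest, 86.8% in 7 islands. In chr4:140823001-140863000, of 40000 bp, 1 H3K27ac island alone spanned 23400 bp.

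H3K27ac coverage varied among the others of nearly the same length. chr10:80388201-80432600, of 44400 bp, had a fold of 3.47, H3K64ac over 98.6% and H3K27ac over 64%, with a stretch of 8600 bp free of H3K27ac. chr5:118893401-118935200, of 41800 bp, had H3K27ac over 56.0% and was the only one of the 10 with 3 separate H3K64ac islands. chr2:156240001-156281800, also of 41800 bp, had H3K64ac over 100% and H3K27ac over 75.1%.

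A pair of long domains lay near each other on chromosome 3. chr3:34631401-34671200, of 39800 bp, had a fold of 4.74, H3K64ac over 98.0% and H3K27ac over 63.3%. chr3:34535201-34574800, of 39600 bp, had a fold of 3.85 and the same H3K64ac coverage, 98.0%, but H3K27ac over only 34.3% in 8 islands, with a stretch of 9200 bp without it. Apart from the entry near the start of chromosome 11, this was the lowest H3K27ac coverage among the 10 longest, at a background of 55.1 reads per kb.

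**Figure D4:**
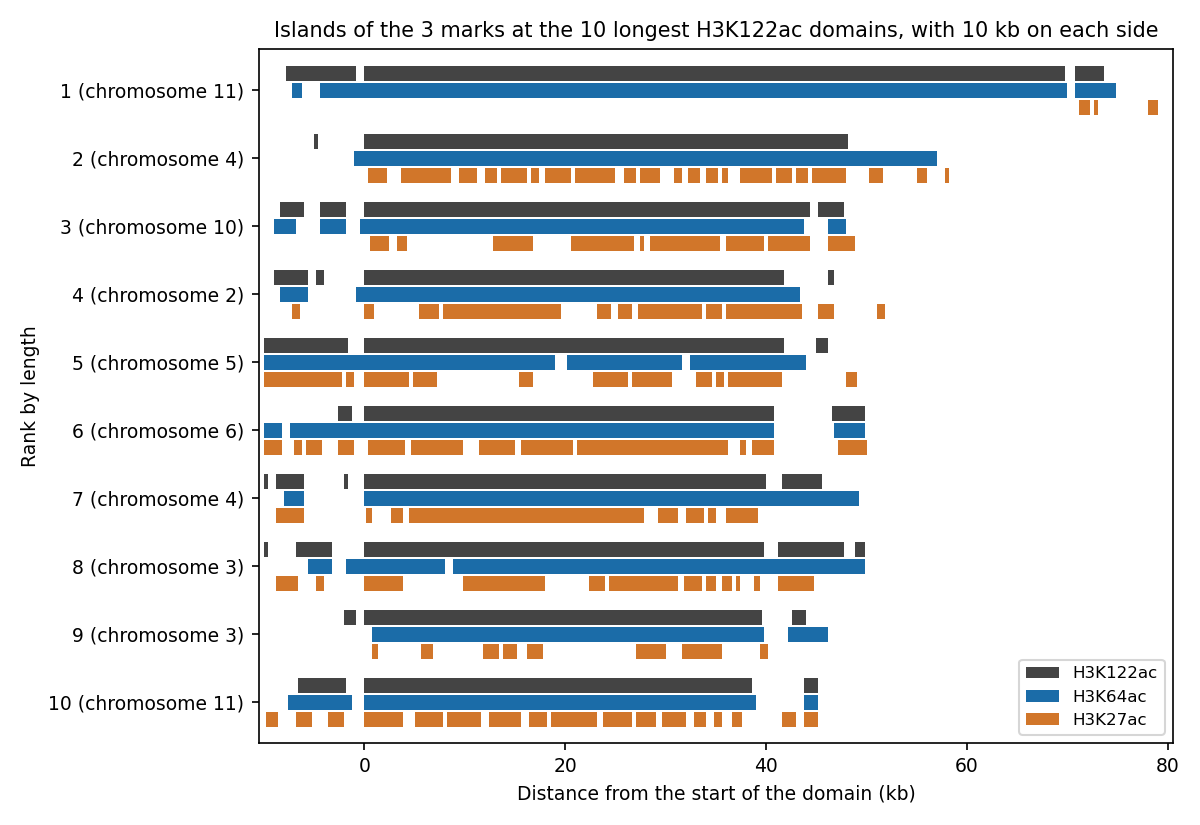
Islands of H3K122ac (grey), H3K64ac (blue) and H3K27ac (orange) at the 10 longest H3K122ac domains, ranked from 1 (69800 bp) to 10 (38600 bp), with distance from the start of the domain in kb on the horizontal axis and 10 kb shown on each side. H3K64ac runs as 1 to 3 long islands along each domain, while H3K27ac is cut into 7 to 18 islands in ranks 2 to 10 and is missing from rank 1.

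Domains at the ends of the H3K27ac scale were named among those of 15000 bp or more. The 4 longest of those fully covered by a single H3K27ac island were chr2:101955801-101974600 of 18800 bp, chr15:74480801-74499000 of 18200 bp, chr19:5835601-5853400 of 17800 bp and chr3:88303801-88320800 of 17000 bp. Their H3K122ac folds were 2.52, 4.50, 4.80 and 5.57 in that order. H3K64ac covered at least 98.9% of each, so at these places all 3 acetylations ran side by side over the same stretch.

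H3K27ac was missing from 71 domains, 3.8%. Their median H3K122ac fold was 2.40, with quartiles of 2.08 and 2.90. A fold of 2 or more was reached by 56 of them, 78.9%. Grouped by H3K27ac coverage, the domains with H3K27ac reached it in 88.9 to 97.9% of each group. In the 71, H3K64ac covered a median of 81.7% of the length, at a median H3K64ac fold of 1.62, and background was 73.0 reads per kb. For 46 of them the nearest H3K27ac island was more than 5000 bp away, and the farthest was at 82600 bp. After the chromosome 11 entry the longest were chr1:74813601-74831400 of 17800 bp, chr6:88143201-88160600 of 17400 bp and chr16:31881801-31899000 of 17200 bp. Their H3K122ac folds were 2.51, 2.30 and 2.04, and H3K64ac covered 91.0%, 59.8% and 90.7% of them at folds of 1.69, 1.74 and 1.15. The nearest H3K27ac islands lay 17600, 31200 and 26000 bp away.

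Between these ends, domains with more H3K27ac mostly had higher values of the other marks too. The 160 domains with some H3K27ac over less than 25% of their length had a median H3K122ac fold of 3.04, a median H3K64ac coverage of 86.8% and an H3K64ac fold of 2.18. The 604 with 50 to 75% had 4.15, 94.5% and 3.66, and the 656 with 75% to just under 100% had 4.13, 100% and 4.01. The 36 domains wholly covered by H3K27ac had a lower median H3K122ac fold, 3.27, at a background of 75.2 reads per kb against 62.8 in the class of 50 to 75%. Median length varied little across the classes, from 11200 to 12800 bp.

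Domains without H3K64ac were rare, 5 in all, and all are named. chr17:28233401-28244800, of 11400 bp, had the highest H3K122ac fold of them, 2.47, and a small H3K27ac island of 400 bp. chr17:84506201-84516200, of 10000 bp, had a fold of 1.82 and H3K27ac over 46.0%. The other 3, chr14:35380401-35391400, chr1:135243401-135253800 and chr19:7254801-7265200, carried neither other mark, with folds of 1.61, 1.25 and 2.08. They were 3 of 1866 domains, 0.161% (0.0547 to 0.472%), against 28.3% of all H3K122ac islands with neither mark. In H3K122ac islands of 5000 to under 10000 bp that share was 2.74%. Among domains of 15000 bp or more the lowest H3K64ac coverage was 16.5%, at chr8:122939601-122955400 with a fold of 1.90, and 28.0%, at chr17:31858601-31877200 with a fold of 2.12. At chr5:129886401-129901400 it was 32.0%, and at chr1:95100001-95115000 40%.

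By fold, the strongest domains were on chromosome X. chrX:100622401-100639400, of 17000 bp, reached 12.0 from 4531 reads over 414 background reads. chrX:12616001-12629000 followed at 10.6 and chrX:101175001-101185800 at 9.95. Their H3K64ac folds were 13.4, 16.0 and 13.6 and their H3K27ac folds 3.52, 3.36 and 3.23. Background at these domains was 23.7 to 25.2 reads per kb, far under the median of 65.2, and its part in these folds was not tested. The strongest elsewhere was chr10:17293801-17306000, of 12200 bp, with 9.61 over a background of 43.0 reads per kb and H3K27ac over 93.4%.

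The weakest were barely above background. chr1:74039001-74049400 had a fold of 1.20 from 865 reads over 789, with H3K64ac over 44.2% and no H3K27ac. chr1:135243401-135253800, named above as lacking both other marks, had 1.25. chr5:35337801-35348800 and chr9:63818401-63829000 both had 1.27, and there H3K64ac still covered 89.1 and 100% at folds of 1.48 and 1.11.

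Broad domains were spread over the numbered chromosomes and X, unevenly. Their share of the H3K122ac islands was highest on chromosome 17, at 3.13% (2.62 to 3.73%), chromosome 11, at 3.08% (2.67 to 3.55%), and chromosome 15, at 2.53% (2.07 to 3.07%). It was lowest on X, at 0.359% (0.189 to 0.681%), then on chromosome 13, at 1.12% (0.851 to 1.47%), and chromosome 3, at 1.41% (1.12 to 1.77%). X had 9 broad domains among 2508 islands, a median background of 28.8 reads per kb over all its islands and a median island length of 1400 bp, against 1800 bp in the whole list. The part of the lower depth on X in this share was not tested. Coverage varied less: over all bases of the domains of a chromosome, H3K64ac covered 87.3 to 96.9% and H3K27ac 55.7 to 70.4%, the latter lowest on X and highest on chromosome 14.

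**Figure D5:**
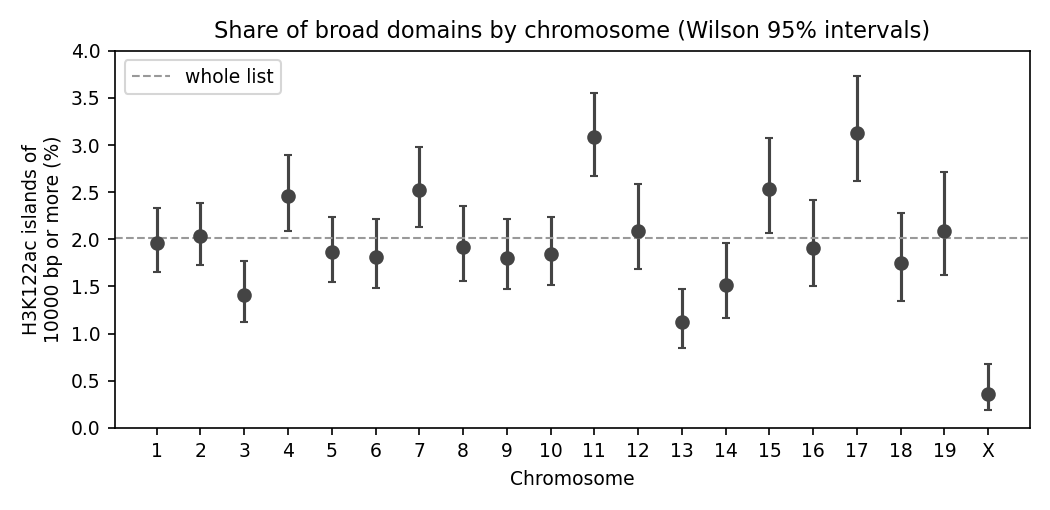
Percentage of the mESC H3K122ac islands of each chromosome that are 10000 bp or longer, with Wilson 95% intervals as bars (counting error only) and the share of the whole list, 2.01%, as the dashed line. Chromosomes 11 and 17 lie above 3%, and X lies at 0.359%.

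Spaces between neighbouring domains varied widely, and no matching values for shorter H3K122ac islands are given here. The space between successive domains of a chromosome had a median of 299600 bp, with quartiles of 63100 and 1127400 bp, and 716 domains (38.4%) had another within 50 kb. Of the 149 spaces of up to 10000 bp, 37 were bridged from end to end by a single stretch of H3K64ac, as were 2 of the 263 spaces longer than that and up to 50000 bp. H3K64ac covered 39.3% of the length of the shortest spaces and 40.2% of those up to 50000 bp, against 7.29% of the spaces over 50000 bp. The same values for H3K27ac were 27.3%, 29.8% and 6.98%. Coverage in the spaces of up to 50000 bp was near that at 5 kb outside the edge of any broad domain, 36.8% and 28.8%. It is therefore not a trait of close pairs. Shorter H3K122ac islands covered 20.7%, 38.6% and 8.25% of the spaces, in the same order of length.

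Joined across spaces of up to 50 kb, the domains formed 304 runs of 2 or more and 71 of 3 or more, and 1150 domains stood alone. The longest run, chr7:52714001-52966600, spanned 252600 bp and held 6 domains that made up 37.5% of it, with folds of 2.88 to 5.40. Over its domains H3K64ac covered 92.2% and H3K27ac 59.8%. Within the run H3K27ac varied widely, from 84.8% at chr7:52802601-52832800, of 30200 bp with a fold of 4.97, to 11.5% at chr7:52882001-52892400, of 10400 bp with a fold of 4.86. H3K64ac covered 98.0% and 94.2% of these 2, at folds of 5.74 and 2.23. The next runs were chr1:134046801-134240600, with 5 domains over 193800 bp and H3K27ac over 50.8% of them, and chr13:98198001-98363400, with 4 domains over 165400 bp and H3K27ac over 80.2%.

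K562, for which there was 1 H3K122ac library and 1 H3K27ac library, gave 1542 broad H3K122ac domains by the same rule, 2.12% of its 72662 islands. H3K27ac was met by 1535 of these, or 99.5%, against 98.6% of K562 islands of 5000 to under 10000 bp. Over all K562 H3K122ac islands the share was 78.1%. H3K27ac covered a median of 90% of the length of the broad K562 domains. The median was 85.2% in K562 islands of 5000 to under 10000 bp and 76.9% over all K562 H3K122ac islands. In mESC the medians in the same order were 64.5%, 53.1% and 28.6%. Organism, sequencing depth and the merging of replicates differ between the lines and cannot be told apart here, so the values are set side by side only. In both lines broad domains had a median of 3 separate H3K27ac islands each.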

How the data were processed

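ChIP-seq island lists of micrococcal nuclease-digested chromatin from 46c mouse embryonic stem cells were analysed for H3K122ac, H3K64ac and H3K27ac, and of K562 for H3K122ac and H3K27ac. Groups follow the sample titles. Per the submitters' processing notes, Bowtie 0.12.8, HOMER 4.3 and SICER 1.1 were used, with builds mm9 and hg19; which tool did which step is not given there. Per the labels in the list names, islands were called in windows of 200 bp at a false discovery rate of 0.01, with gaps of 600 bp (H3K27ac 200 bp), on merged mouse replicates. Each deposited list gives whole-number read counts of the ChIP and a background library, p-values and q-values (adjusted p-values) from the authors' caller, and a fold, which is the deposited count ratio divided by 1 library ratio per list (0.913, 1.08 and 2.19 for H3K122ac, H3K64ac and H3K27ac). The background library of the mouse lists is not named in the sources used here. K562 H3K4me1 was not used here. Fold levels were compared only within a list, since each list is scaled by its own ratio. Between lists, their order over domains was described by rank correlation.

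Domains were H3K122ac islands of 10000 bp or more. Covered length, pieces, edges and distances were computed with Python 3.11.15, numpy 2.4.6 and pandas 2.3.3, and the interval code was tested on 1195 simulated islands with 0 mismatches. A mark met a domain when they shared at least 1 bp. The fold of a mark at a domain pools the reads of whole islands it met. Shares carry Wilson 95% intervals. No test was made, since each mark had 1 list. Members, rules and alternatives were chosen with earlier results of these data known. Named regions were the 10 longest domains, those of highest and lowest fold with at least 100 background reads, the longest without each other mark, those of 15000 bp or more with the highest and lowest coverage, those with most H3K27ac islands, the longest runs, and the chromosomes at both ends of the scale. Highest H3K64ac coverage was tied at 100%, and ties went to the longest. The limit of 100 background reads per kb, the fifth domain without H3K64ac and the domains picked out within the runs were chosen after the values were seen.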

Additional observations from a re-analysis of the deposited data

How the results depend on the processing

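The number of domains, their shares and the median folds, 7 results in all, were recomputed under alternatives, which gave 45 values. Of these, 21 stayed within 1.5 times a count or within the 95% interval of the reported value, and 24 did not, while no result had a direction to reverse. With a limit of 8000 bp there were 3451 domains, of which 95.9% had at least 50% covered by H3K64ac and 63.6% by H3K27ac, 93.3% met H3K27ac and 53.2% met a broad H3K64ac island. With 15000 bp there were 524, and the values were 98.7%, 74.6%, 98.5% and 89.9%. At a q-value of at most 1e-10 in every list the shares covered over at least 50% were 95.5% for H3K64ac and 49.4% for H3K27ac, 85.0% met H3K27ac, and median folds of islands inside domains were 1.79 for H3K27ac and 2.93 for H3K64ac. With 80% of the length required, the shares were 82.5% and 28.6%. When only H3K64ac or H3K27ac islands of at least 2-fold were kept they were 84.5% and 7.61%, and 33.9% met H3K27ac. Joining H3K27ac across 600 bp gave 72.0%, and requiring 10% of the domain to be covered by H3K27ac gave 94.3%. Median folds of islands that shared at least 1 bp with a domain were 1.55 for H3K27ac and 3.20 for H3K64ac. Stricter limits on the second list keep fewer of its islands by construction. Numbered chromosomes alone and the removal of the 6 domains of high background, added after seeing the data, kept all results within these bounds. No paired analysis was possible because the replicates were merged before islands were called, and leaving out a replicate was not possible for the same reason.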

Other observations

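Broad H3K27ac islands were the rarest of the broad islands in mESC, 554 of 122097 or 0.454% of the list, against 2.01% for H3K122ac and 4.81% for H3K64ac. The gap allowed in the H3K27ac list was smaller, and its part in this count was not tested. Of the 554, 342 met no broad H3K122ac domain, 270 of these met shorter H3K122ac islands, and 72 met no H3K122ac island at all. Over all H3K27ac islands, 45.0% met no H3K122ac island. The median H3K27ac fold was 1.25 in the 342 and 1.54 in the 212 that met a broad H3K122ac domain.

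In K562, 7 of the 1542 broad H3K122ac domains held no H3K27ac island, as did 15878 of all 72662 H3K122ac islands and 94 of the 6789 islands of 5000 to under 10000 bp. Broad K562 domains had a median fold of 7.62, and those of 5000 to under 10000 bp one of 7.46.

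Islands with a background above 100 reads per kb made up 2.12% of all mESC H3K122ac islands and 0.322% of the broad domains.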
